A study of Mus musculus with 10 samples.

Results

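The 4 enzyme families that handle drugs and other foreign compounds were followed in crypts of the mouse colon, glands of the epithelium with stem cells at their base. Members were the protein-coding genes whose symbol begins with Cyp, Ugt or Sult and a digit, or with Gst, a class letter (a, k, m, o, p or t) and a digit, without Cyp51. Of 33632 gene IDs in the count table, 110 met this rule: 62 Cyp, 17 Ugt, 10 Sult and 21 Gst genes. A further 53 genes of the annotation that meet the rule had no ID in the table and were not analysed here.

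RNA sequencing covered 10 libraries. The 5 SOX21CKO libraries came from mice with the genotype Lgr5-EGFP-IRES-CreERT2/+;Sox21fl/fl, in which stem cells that express Lgr5 make a Cre recombinase that tamoxifen activates and that can delete the transcription factor gene Sox21. The 5 SOX21flox libraries came from Sox21fl/fl mice, which carry the floxed alleles without the Cre. All mice had a normal diet and a normal liver. The labels give no age, do not say that the SOX21flox mice received tamoxifen, and do not say whether libraries came from separate animals, so p-values rest on the spread between libraries, which may be technical. The comparison asks how crypts differ when Sox21 can be deleted in their stem cells.

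Cyp enzymes, the cytochromes P450, insert oxygen into foreign compounds, fatty acids and sterols. Ugt enzymes attach glucuronic acid, Sult enzymes attach sulphate and Gst enzymes attach glutathione, and each of these additions makes a compound easier to excrete. The liver is the main site of these reactions, and the intestinal epithelium is the next, since it meets compounds from food, drugs and bacteria before they reach the blood.

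Total counts ran from 18926634 to 23642415 per library. Mitochondrial genes took 26.5% of counts in SOX21flox 1 and 29.3% in SOX21flox 4, against 4.30% to 11.8% in the other 8 libraries, so values without these libraries are given beside results that they move. Sox21 itself was not lower in the libraries labelled SOX21CKO, at 5.34 ± 1.94 CPM, against 4.04 ± 1.80 CPM in SOX21flox (SD, n = 5 each; edgeR log2 fold change 0.38 ± 0.34 SE, adjusted p = 0.577). CPM are counts scaled to the same library size after correction for composition. The targeted gene therefore did not check the labels, and the group names below mean the libraries so labelled. The colonocyte markers summed to 4920 to 14800 CPM in SOX21CKO, against 9720 to 15000 CPM in SOX21flox, with the lowest sum in SOX21CKO 5. The 8 goblet cell markers were all lower in SOX21CKO, with sums of 13600 to 24400 CPM, against 25100 to 40000 CPM in SOX21flox. The 6 tested stem cell markers were all higher, with sums of 154 to 248 CPM in SOX21CKO, against 91.1 to 191 CPM in SOX21flox, and the 5 tuft cell markers were all lower, with sums of 41.6 to 97.8 CPM in SOX21CKO, against 48.2 to 131 CPM in SOX21flox. Marker sums of fibroblasts and muscle were 118, 113 and 180 CPM in SOX21CKO 3, 4 and 5 and 43.2 and 46.2 CPM in SOX21CKO 1 and 2, against 16.7 to 62.3 CPM in SOX21flox. Of 10 hepatocyte markers, 7 had a row and 5 were tested, of which 3 were higher and 2 lower in SOX21CKO. The defining marker Alb averaged 1.09 CPM in SOX21CKO and 0.356 CPM in SOX21flox, while Apoa2 averaged 0.347 CPM in SOX21CKO and 0.721 CPM in SOX21flox. In bulk libraries fewer cells of a type and less RNA per cell cannot be told apart.

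Upstream sequences are shown for 4 neighbouring Cyp2c genes of chromosome 19, because Cyp2c68, Cyp2c69 and Cyp2c40 were among the members with the smallest p and Cyp2c55 is the most abundant Cyp transcript. They are the 250 bases before the annotated start, from RefSeq (GRCm38.p6), and were picked with their values known. Capitals mark CAAAGTCCA, a sequence bound by the nuclear receptor Hnf4, and, in Cyp2c68, GCGTG read on the other strand (CACGC), the core bound by the aryl hydrocarbon receptor.
Cyp2c68 (chr19:39741102-39741351, minus strand): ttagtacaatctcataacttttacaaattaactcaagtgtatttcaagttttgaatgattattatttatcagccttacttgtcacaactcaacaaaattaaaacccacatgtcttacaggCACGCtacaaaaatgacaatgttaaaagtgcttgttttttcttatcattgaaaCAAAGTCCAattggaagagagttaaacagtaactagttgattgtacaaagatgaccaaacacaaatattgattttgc
Cyp2c69 (chr19:39886770-39887019, minus strand): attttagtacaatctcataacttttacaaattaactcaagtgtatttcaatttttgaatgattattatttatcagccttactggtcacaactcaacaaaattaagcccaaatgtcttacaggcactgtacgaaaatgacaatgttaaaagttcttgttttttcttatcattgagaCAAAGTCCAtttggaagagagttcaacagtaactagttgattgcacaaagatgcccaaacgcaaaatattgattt
Cyp2c40 (chr19:39812815-39813064, minus strand): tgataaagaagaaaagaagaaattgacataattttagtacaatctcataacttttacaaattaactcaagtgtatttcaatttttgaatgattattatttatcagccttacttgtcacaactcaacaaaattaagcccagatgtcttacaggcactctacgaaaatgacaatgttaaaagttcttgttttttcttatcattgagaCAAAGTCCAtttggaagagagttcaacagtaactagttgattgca
Cyp2c55 (chr19:39006769-39007018, plus strand): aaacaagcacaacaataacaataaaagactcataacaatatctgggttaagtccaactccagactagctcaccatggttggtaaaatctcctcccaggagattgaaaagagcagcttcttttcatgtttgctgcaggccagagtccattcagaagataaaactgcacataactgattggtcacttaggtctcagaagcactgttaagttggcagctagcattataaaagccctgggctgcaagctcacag

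Aligned with free ends, the window of Cyp2c68 was identical to that of Cyp2c69 at 232 of 247 overlapping positions and to that of Cyp2c40 at 207 of 218. With Cyp2c55 the best alignment overlapped by 18 bases only. CAAAGTCCA, searched on both strands from 250 bases before to 50 after the start, was found in 8 of the 94 members with a RefSeq promoter (8.51%), against 0.477% of 27025 promoters. The 8 were Cyp2c40, Cyp2c65, Cyp2c67, Cyp2c68, Cyp2c69, Cyp2c70, Cyp3a11 and Cyp8b1, so 6 of them are Cyp2c genes, whose windows are partly alike. GCGTG was found in 27.7% of members and 32.5% of all promoters, and TGACNNNGC, the antioxidant response element, in 8.51% and 12.5%. The D-box sequences TTACGTAA and TTATGTAA, bound by Tef, Dbp and Hlf, were found in 0 and 1 member (Ugt2b1), which is 0% and 1.06%, against 0.107% and 0.955% of all promoters. The Hnf1 consensus sequence was found in 0 members and in 0.0074% of all promoters. A match describes these letters in this window only.

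Detection differed by family. Deposited FPKM, the authors' values per length and per library total, serve here to compare levels between genes. A mean of at least 1 FPKM over the 10 libraries was reached by 26 of 62 Cyp, 7 of 17 Ugt, 5 of 10 Sult and 18 of 21 Gst genes. At 100 FPKM or more stood 9 members: Gstp1, Gsto1, Cyp2c55, Gstp2, Gstm1, Sult1a1, Gstm2, Sult1b1 and Gstk1. The count filter passed 69 members (32 Cyp, 12 Ugt, 6 Sult and 19 Gst) of 14963 genes in all, and only these were tested. The 41 others had at least 1 read each, and 39 of them had fewer than 100 reads over all libraries.

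Some members had few reads, of which the following were picked after their values were seen. Cyp1a1, the classic target of the aryl hydrocarbon receptor, and Cyp2e1, an ethanol-oxidizing enzyme of liver, had 1 read each in 10 libraries. Cyp2b10, an inducible drug-oxidizing enzyme, had 4 reads, and Cyp3a11, the main Cyp3a enzyme of mouse liver, had 6. Cyp8b1, a bile acid enzyme of liver, had 4 reads. The Gsta2 gene, an inducible alpha class member, had 16.

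The most abundant Cyp transcript was Cyp2c55 (ENSMUSG00000025002), a colon-rich enzyme that oxidizes arachidonic acid, with a mean of 587 FPKM over all libraries. It made up 49.3% of all Cyp CPM. Its next neighbours on the same scale were Cyp2d34 at 91.4 FPKM, Cyp4f14, a hydroxylase of leukotriene and fatty acid tails, at 87.6 FPKM, Cyp2c65 at 71.9 FPKM and Cyp4f13 at 53.1 FPKM. In the Ugt family the leading transcripts were Ugt1a7c at 94.3 FPKM, Ugt1a6a, which acts on phenols, at 93.6 FPKM, Ugt2b34 at 81.0 FPKM, Ugt1a1, the bilirubin enzyme, at 38.1 FPKM and Ugt2b5 at 11.6 FPKM. The Sult family was led by Sult1a1, which sulphates phenols, at 159 FPKM, Sult1b1, which also sulphates thyroid hormone, at 133 FPKM, Sult2b1, a sterol enzyme, at 86.4 FPKM, Sult1d1 at 47.6 FPKM and Sult1c2 at 15.2 FPKM. Gstp1 at 955 FPKM, Gsto1, which also reduces oxidized vitamin C, at 591 FPKM, Gstp2 at 337 FPKM, Gstm1 at 276 FPKM and Gstm2 at 139 FPKM led the Gst family. SOX21flox 1 and 4, the libraries with the large mitochondrial share, had the lowest Cyp2c55 values of all libraries on this scale, at 183 and 240 FPKM, against 346 to 1050 FPKM in SOX21CKO and 611 to 671 FPKM in the other 3 SOX21flox libraries. On the CPM scale the lowest library for Cyp2c55 was SOX21CKO 5, at 460 CPM, against 535 and 672 CPM in SOX21flox 1 and 4.

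**Figure D1:**
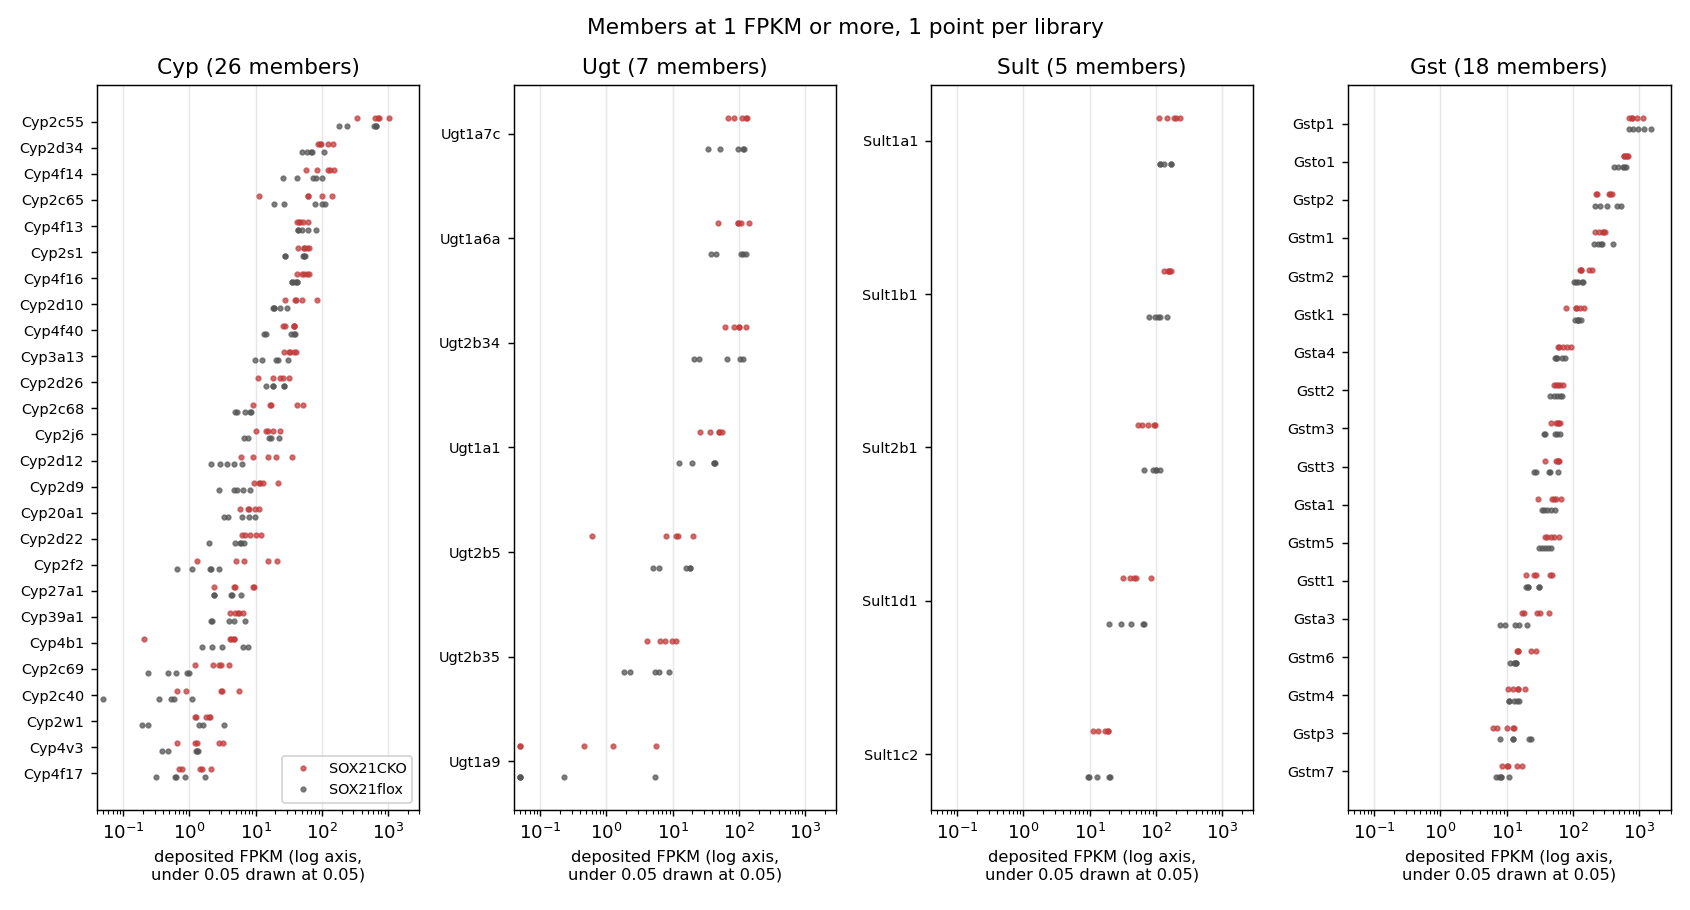
Deposited FPKM (log axis) of the 56 members with a mean of at least 1 FPKM, by family, with 1 point per library, SOX21CKO above SOX21flox, and values under 0.05 FPKM drawn at 0.05. Gstp1, Gsto1 and Cyp2c55 lie furthest to the right, and the points of both groups overlap for most members.

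No member passed the threshold in the edgeR quasi-likelihood test (Benjamini-Hochberg adjusted p under 0.05), and neither did any other gene: the share called was 0% of 14963 genes. With an unadjusted p under 0.05, 8 members were higher in SOX21CKO (6 Cyp, 1 Ugt and 1 Gst; 5.05% of all genes) and 4 were lower (1 Cyp, 1 Sult and 2 Gst; 7.91% of all genes). DESeq2, run as an alternative, called 3 members higher, Cyp2c68, Cyp2c69 and Cyp2f2 (0.409% of 14668 genes), and 0 lower (0.804%), while it called 1.21% of all genes in either direction. Without SOX21flox 1 and 4 it called Cyp2c68 and Cyp2c69 (0.224% of 15626 genes higher, 0.454% in either direction). Without SOX21CKO 3 and 5 it called 0 members (24 genes in all, 0.156%, with 0.0261% higher).

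The families did not share a direction. Of tested Cyp members 21 were higher and 11 lower in SOX21CKO, with a median log2 fold change of 0.14, beside 50.1% higher, 49.9% lower and a median of 0.001 over all genes. Of Ugt members 5 were higher and 7 lower, with a median of -0.25, and of Sult members 1 was higher and 5 were lower, with a median of -0.18. Of Gst members 3 were higher and 16 lower, with a median of -0.23. Without SOX21flox 1 and 4 the Cyp family had 20 higher and 14 lower with a median of 0.15, while the Gst family had 13 higher and 6 lower with a median of 0.09. The Ugt family then had 4 higher and 9 lower with a median of -0.14, and the Sult family 2 and 5 with a median of -0.21 (53.3% of all genes higher, 46.7% lower, median 0.02). Without SOX21CKO 3 and 5 the Gst family had 2 higher and 17 lower with a median of -0.30, and the Cyp family again 21 and 11 with a median of 0.18. The Ugt family turned to 9 higher and 5 lower with a median of 0.13, and the Sult family had 2 and 5 with a median of -0.21 (49.7% of all genes higher, 50.3% lower). With scaling by library totals, which moved the median of all genes to 0.36, 84.9% of all genes were higher, and the split was 28 higher and 4 lower for Cyp, 6 and 6 for Ugt, 4 and 2 for Sult, and 14 and 5 for Gst members. Summed over members, Cyp genes held 2050 ± 513 CPM in SOX21CKO and 1750 ± 281 CPM in SOX21flox, and Ugt genes held 768 ± 177 CPM in SOX21CKO and 740 ± 175 CPM in SOX21flox. Sult genes summed to 447 ± 80.1 CPM in SOX21CKO and 513 ± 92.8 CPM in SOX21flox, and Gst genes to 1720 ± 232 CPM in SOX21CKO and 2330 ± 919 CPM in SOX21flox. The Sult and Gst ratios on the CPM scale depend on the scaling: on deposited FPKM the sums were 477 ± 60.8 in SOX21CKO and 405 ± 57.0 in SOX21flox for Sult genes. For Gst genes they were 2830 ± 279 in SOX21CKO and 2850 ± 444 in SOX21flox.

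**Figure D2:**
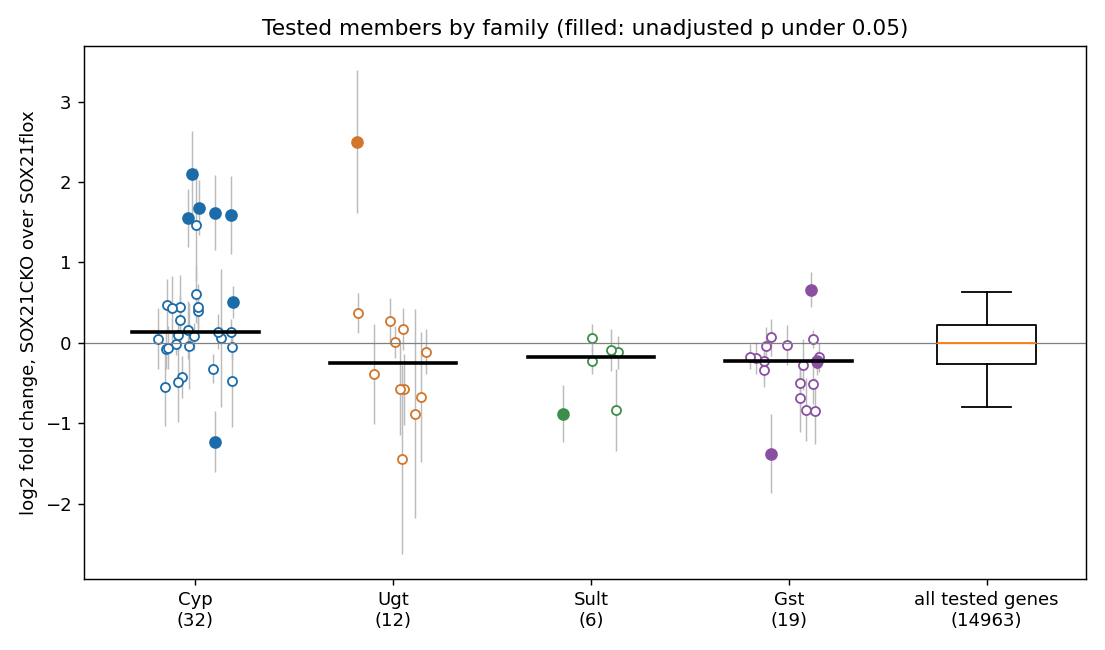
Log2 fold change of SOX21CKO over SOX21flox with its SE for each tested member by family; filled points have an unadjusted p under 0.05, black lines are family medians, and the box gives the quartiles of all 14963 tested genes with whiskers at their 5th and 95th percentiles. The Cyp median lies at 0.14 and the Gst median at -0.23, beside 0.001 for all genes.

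Cyp families 1 to 3 without Cyp2j and Cyp2s are best known for acting on foreign compounds. Some of their members have other substrates, such as fatty acids for Cyp2u1, Cyp2c55 and Cyp2c65. Of their 18 tested members 14 were higher in SOX21CKO, with a median log2 fold change of 0.41, as were 13 of 18 without SOX21flox 1 and 4 (median 0.46). With Cyp2j and Cyp2s included, 15 of 21 were higher, with a median of 0.29. In families 4, 2j and 2s, which act on fatty acids and eicosanoids, 4 were higher and 7 lower with a median of -0.05. The other families, many of which act on sterols, vitamins or hormones, had 3 tested members. These were Cyp20a1, Cyp27a1 and Cyp39a1, with log2 fold changes of 0.14, 0.47 and 0.08.

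Cyp2c69 (ENSMUSG00000092008, chromosome 19), a member of the Cyp2c cluster known mainly from liver, had the smallest p of the members. It stood at 2.63, 1.38, 4.19, 3.84 and 3.15 CPM in SOX21CKO 1 to 5, against 0.554, 0.994, 0.802, 1.06 and 1.25 CPM in SOX21flox 1 to 5. All SOX21CKO libraries were above all SOX21flox libraries. The log2 fold change was 1.68 ± 0.34 (SE; edgeR unadjusted p = 0.000332, adjusted p = 0.174; DESeq2 adjusted p = 0.00121), and 1.58 without SOX21flox 1 and 4. Without SOX21CKO 3 and 5 it was 1.47, and the DESeq2 adjusted p was 0.179.

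Cyp2c68 (ENSMUSG00000074882, chromosome 19), whose upstream sequence is close to that of Cyp2c69, stood at 21.4, 19.9, 47.3, 13.4 and 58.3 CPM in SOX21CKO 1 to 5. In SOX21flox 1 to 5 it stood at 11.9, 8.10, 11.7, 12.3 and 11.1 CPM. The groups did not overlap, though SOX21CKO 4 was close to the SOX21flox libraries and SOX21CKO 3 and 5 were far above them. This gave a log2 fold change of 1.55 ± 0.36 (edgeR adjusted p = 0.261; DESeq2 adjusted p = 0.00769), 1.65 without SOX21flox 1 and 4, and 0.73 without SOX21CKO 3 and 5 (DESeq2 adjusted p = 0.272). These were the 2 members that did not overlap with SOX21CKO higher, beside 0.922% of all genes. Cyp2c40, the next gene of this group, averaged 1.43 ± 0.691 CPM in SOX21CKO and 0.473 ± 0.256 CPM in SOX21flox, with groups that overlapped, a log2 fold change of 1.59 ± 0.48 and an edgeR adjusted p of 0.343.

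These Cyp2c genes share sequence. Of the 75-base words in transcripts of Cyp2c69, 42.6% also occur in transcripts of other genes, mostly of Cyp2c40, and the shares were 45.9% for Cyp2c40 and 28.5% for Cyp2c68. Their counts may include reads of each other, since the counting of such reads is not given in the sources used here. Cyp2c55 shared no such word with another gene. It averaged 1030 ± 401 CPM in SOX21CKO and 841 ± 226 CPM in SOX21flox, with a log2 fold change of 0.29 ± 0.30 (edgeR adjusted p = 0.631) and 0.05 without SOX21flox 1 and 4. Cyp2c65, another intestinal enzyme of arachidonic acid, stood at 202, 142, 79.7, 103 and 14.2 CPM in SOX21CKO 1 to 5, against 53.7, 135, 125, 71.4 and 171 CPM in SOX21flox 1 to 5. Its lowest library was SOX21CKO 5. Its log2 fold change of -0.04 ± 0.53 became 0.42 without SOX21CKO 3 and 5 and -0.41 without SOX21flox 1 and 4.

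Cyp2f2 (ENSMUSG00000052974, chromosome 7), an enzyme best known from club cells of the airway, where it activates naphthalene, shares no 75-base word with another gene. It stood at 6.61, 8.98, 18.8, 2.08 and 24.9 CPM in SOX21CKO 1 to 5, against 1.74, 2.66, 3.83, 2.87 and 3.16 CPM in SOX21flox 1 to 5. SOX21CKO 4 lay among the SOX21flox libraries and the other 4 SOX21CKO libraries lay above all of them. The log2 fold change was 2.10 ± 0.53 (edgeR adjusted p = 0.294; DESeq2 adjusted p = 0.00821), 1.95 without SOX21flox 1 and 4 (DESeq2 adjusted p = 0.367), and 1.04 without SOX21CKO 3 and 5 (DESeq2 adjusted p = 0.734).

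Cyp2d genes form a cluster on chromosome 15 whose human counterpart is the drug-oxidizing CYP2D locus. Cyp2d12 (ENSMUSG00000096852) stood at 11.4, 19.4, 24.8, 8.67 and 43.1 CPM in SOX21CKO 1 to 5, against 11.3, 2.41, 4.86, 8.61 and 8.13 CPM in SOX21flox 1 to 5. The groups overlapped, and SOX21CKO 3 and 5 were again the highest. Its log2 fold change was 1.62 ± 0.47 (edgeR adjusted p = 0.337; DESeq2 adjusted p = 0.0511), 2.09 without SOX21flox 1 and 4, and 0.92 without SOX21CKO 3 and 5. Cyp2d9 and Cyp2d10 had log2 fold changes of 0.44 and 0.05 over all libraries and of 1.19 and 0.86 without SOX21flox 1 and 4, where both were high. Cyp2d10 stood at 38.0 and 58.3 CPM in these libraries, against 13.8 to 18.3 CPM in the other 3 SOX21flox libraries and 23.3 to 49.9 CPM in SOX21CKO. With these 2 libraries left out, 10 members had an unadjusted p under 0.05 and were higher in SOX21CKO (3.34% of all genes), among them Cyp2d9, Cyp2d10, Cyp2d12 and Cyp2d22, and 2 were lower, Cyp2u1 and Cyp2w1 (3.07%). Without SOX21CKO 3 and 5, 5 Cyp members were higher (1.69% of all genes), and Cyp2u1 and Gstp3 were lower (2.69%).

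Cyp3a13, an intestinal member of the Cyp3a drug-oxidizing family, averaged 79.2 ± 19.7 CPM in SOX21CKO and 55.7 ± 12.6 CPM in SOX21flox. This gave a log2 fold change of 0.51 ± 0.20 with an unadjusted p of 0.0237 and an adjusted p of 0.372 in edgeR. Cyp2u1 (ENSMUSG00000027983, chromosome 3), a hydroxylase of long-chain fatty acids, was the only member that did not overlap with SOX21CKO lower (1.26% of all genes). It stood at 1.05, 1.01, 0.865, 0.987 and 1.06 CPM in SOX21CKO 1 to 5, against 4.90, 1.14, 2.45, 1.66 and 1.69 CPM in SOX21flox 1 to 5. The SOX21CKO libraries lay close together and SOX21flox 1 was far above the rest. The log2 fold change was -1.23 ± 0.38 (edgeR adjusted p = 0.348), and -0.81 without SOX21flox 1 and 4.

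**Figure D3:**
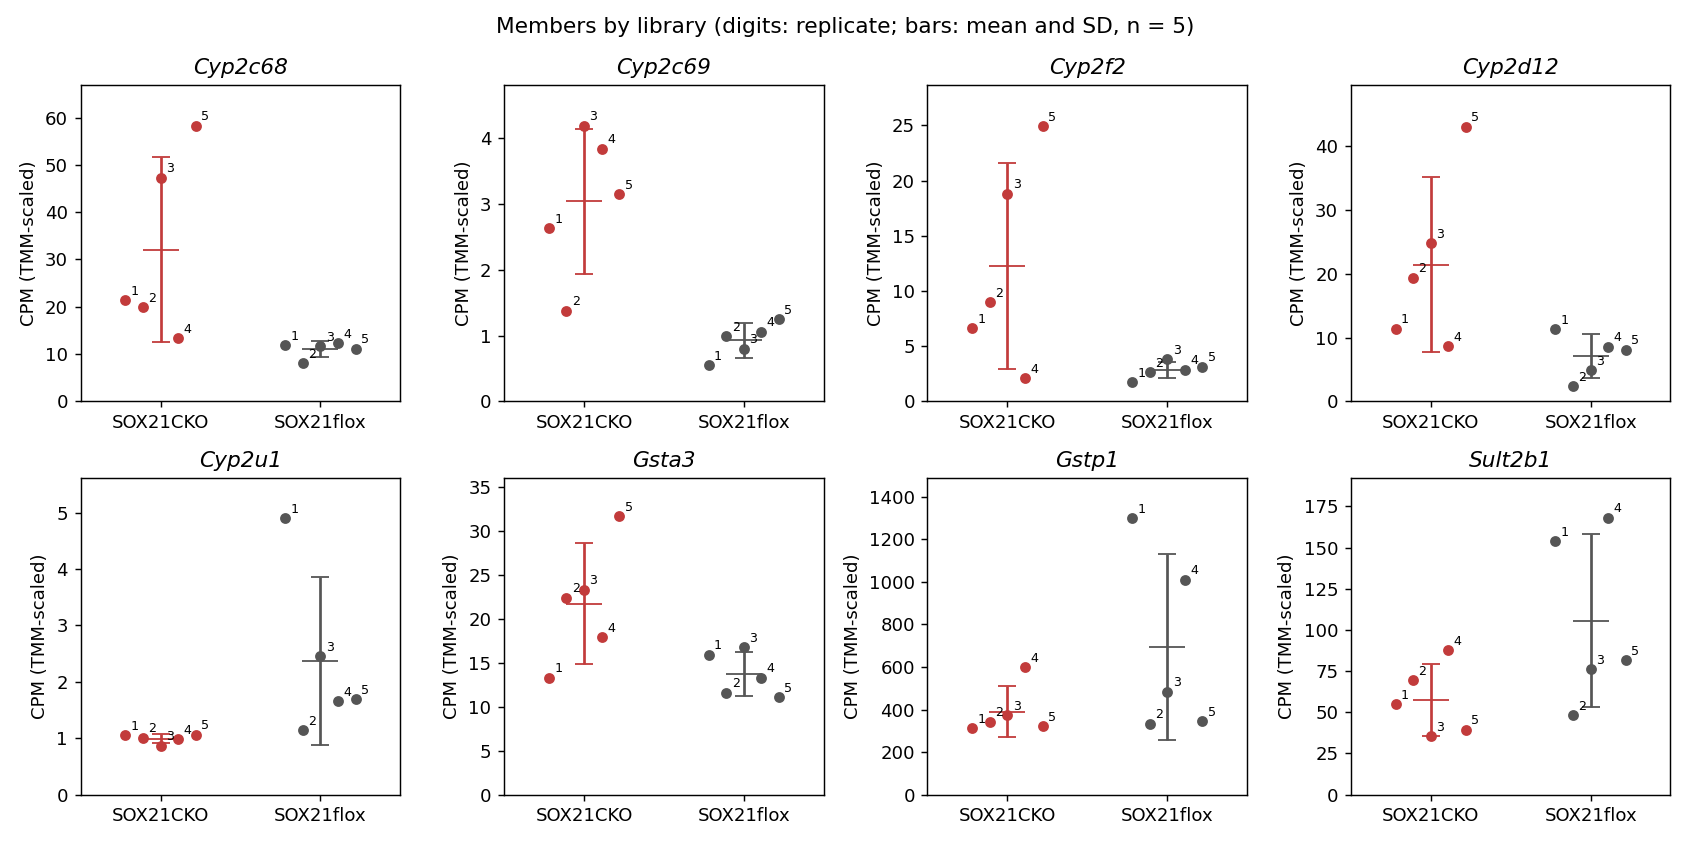
TMM-scaled CPM of 8 members in each library, SOX21CKO left of SOX21flox, with the replicate number beside each point and bars for the mean and SD (n = 5). SOX21CKO 3 and 5 are the highest for Cyp2c68, Cyp2f2 and Cyp2d12, and SOX21flox 1 and 4 are the highest for Gstp1 and Sult2b1.

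SOX21CKO 5 and SOX21flox 1 were often at either end of the 10 libraries. SOX21CKO 5 was the lowest for 21 of 69 tested members (30.4%, against 14.4% of all genes) and the highest for 14 (20.3%, against 13.5%). SOX21flox 1 was the highest for 18 (26.1%, against 25.2%) and the lowest for 14 (20.3%, against 25.9%). Cyp4b1 had 0.248 CPM in SOX21CKO 5, against 4.77 to 6.80 CPM in the other 4 SOX21CKO libraries and 3.93 to 10.1 CPM in SOX21flox. The sum of the colonocyte markers was 4920 CPM in SOX21CKO 5 and 7960 CPM in SOX21CKO 3, below every other library. Hepatocyte marker sums were 51.5 and 61.1 CPM in SOX21CKO 3 and 5, against 22.0 to 37.3 CPM in SOX21flox, and most of this was Ttr, at 31.2 and 43.9 CPM. Alb stood at 1.66 and 1.31 CPM there and at 1.43 CPM in SOX21CKO 4. Stem cell marker sums were also highest in SOX21CKO 3 and 5, at 219 and 248 CPM. They were 154 to 200 CPM in the other SOX21CKO libraries and 91.1 to 191 CPM in SOX21flox. The part of these cell markers in the levels of Cyp2c68, Cyp2f2 and Cyp2d12 was not tested.

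The Ugt1a genes share a locus on chromosome 1, in which alternative start exons are spliced to the same set of later exons, so that the enzymes differ in their front part and are identical in the rest. A 75-base stretch of the shared part, positions 869 to 943 of the 1608-base coding sequence of Ugt1a1 (GENCODE M21, GRCm38), occurs in transcripts of all 9 Ugt1a members and is shown here because a read that lies wholly within it matches all of them.
Ugt1a shared stretch: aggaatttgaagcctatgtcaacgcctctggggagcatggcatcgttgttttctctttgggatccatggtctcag

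The median share of 75-base words that occur in other genes was 51.2% for Ugt members, against 0.8% for Cyp and 0% for Gst and Sult members. Among the 9 Ugt1a genes the share ran from 51.2% (Ugt1a6a) to 74.8% (Ugt1a6b). Single Ugt1a values are uncertain for this reason, and the sum over the 9 genes is less so. This sum was 506 ± 126 CPM in SOX21CKO and 513 ± 84.7 CPM in SOX21flox. Of the most abundant, Ugt1a7c had a log2 fold change of 0.01 ± 0.20, Ugt1a6a of -0.11 ± 0.28 and Ugt1a1 of 0.17 ± 0.26. The 95% interval of the ratio of SOX21CKO to SOX21flox ran from 0.747 to 1.35 for Ugt1a7c. Ugt1a6b (ENSMUSG00000090145) had the smallest p of the family, with 9, 37, 63, 27 and 63 reads in SOX21CKO 1 to 5, against 0, 0, 7, 0 and 21 reads in SOX21flox 1 to 5. The groups overlapped, and 74.8% of its words are shared, mostly with Ugt1a6a, which averaged 173 ± 63.2 CPM in SOX21CKO and 187 ± 47.0 CPM in SOX21flox. Its log2 fold change was 2.50 ± 0.89 (edgeR unadjusted p = 0.0161, adjusted p = 0.365). Ugt1a8 and Ugt1a9 had reads in 5 of 10 libraries each and did not pass the filter.

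Ugt2b genes, which act mainly on steroids, lie on chromosome 5. Ugt2b34, the most abundant, averaged 225 ± 53.2 CPM in SOX21CKO and 186 ± 83.8 CPM in SOX21flox, with a log2 fold change of 0.27 ± 0.29, and -0.08 without SOX21flox 1 and 4. Ugt2b5 stood at 27.1, 16.0, 13.7, 12.7 and 0.743 CPM in SOX21CKO 1 to 5, against 13.3 to 26.9 CPM in SOX21flox. SOX21CKO 5 lay below all other libraries, and the log2 fold change of -0.58 ± 0.57 was -0.17 without SOX21CKO 3 and 5. Ugt2b36 and Ugt2b35 had log2 fold changes of -0.58 ± 0.44 and 0.37 ± 0.25.

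Among sulphotransferases Sult2b1 (ENSMUSG00000003271, chromosome 7), which sulphates cholesterol and other sterols, had the smallest p. It stood at 55.0, 69.5, 35.6, 87.8 and 39.3 CPM in SOX21CKO 1 to 5, against 154, 48.3, 76.3, 168 and 81.5 CPM in SOX21flox 1 to 5. SOX21flox 1 and 4 were above all other libraries, and the groups overlapped. This gave a log2 fold change of -0.88 ± 0.35 (edgeR unadjusted p = 0.0291, adjusted p = 0.374), and -0.25 without these libraries. The other abundant members, Sult1a1, Sult1b1, Sult1d1 and Sult1c2, had log2 fold changes between -0.23 and 0.06, and the sum of the Sult1 genes was 389 ± 76.6 CPM in SOX21CKO and 406 ± 42.3 CPM in SOX21flox.

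The pi class of glutathione transferases gave the largest Gst difference in CPM. Gstp1 (ENSMUSG00000060803, chromosome 19), which conjugates glutathione to many electrophiles, stood at 312, 343, 373, 599 and 322 CPM in SOX21CKO 1 to 5, against 1300, 334, 484, 1010 and 345 CPM in SOX21flox 1 to 5. On this scale SOX21flox 1 and 4 were far above the other 8 libraries, which overlapped. The log2 fold change was -0.83 ± 0.39 (edgeR adjusted p = 0.386), and 0.02 without these libraries. Gstp2 had log2 fold changes of -0.85 ± 0.41 with and 0.10 without them, and Gstp3 of -1.38 ± 0.49 with and -0.24 without them. Gstp1 and Gstp2 share sequence, with 29.2% and 50.1% of their words found in other genes. The composition correction used factors of 0.585 and 0.605 for SOX21flox 1 and 4, against 0.965 to 1.28 for the others. A low factor raises CPM. On deposited FPKM the Gstp genes summed to 2100 and 1670 in SOX21flox 1 and 4. Against this stood 948 to 1540 in SOX21CKO and 933 to 1300 in the other SOX21flox libraries. Of the 19 tested Gst members, 12 were highest in SOX21flox 1 in CPM (63.2%, against 25.2% of all genes). The mitochondrial share of counts, 26.5% and 29.3% in SOX21flox 1 and 4, moved with these levels. With this share as a covariate the log2 fold change was 0.05 for Gstp1 and 0.13 for Gstp2. The cause of the high levels in these 2 libraries was not tested.

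Gsta3 (ENSMUSG00000025934, chromosome 1), the alpha class enzyme that detoxifies the epoxide of aflatoxin in mice, was the only Gst member with an unadjusted p under 0.05 that was higher in SOX21CKO. It stood at 13.3, 22.4, 23.3, 17.9 and 31.7 CPM in SOX21CKO 1 to 5, against 15.9, 11.6, 16.8, 13.3 and 11.1 CPM in SOX21flox 1 to 5. SOX21CKO 1 lay within the SOX21flox range and the other 4 above it. This gave a log2 fold change of 0.66 ± 0.22 (edgeR unadjusted p = 0.0107, adjusted p = 0.365), 0.74 without SOX21flox 1 and 4, and 0.38 without SOX21CKO 3 and 5 (edgeR unadjusted p = 0.106). Gsto1 averaged 478 ± 53.5 CPM in SOX21CKO and 540 ± 92.6 CPM in SOX21flox, and its log2 fold change of -0.17 ± 0.16 had a 95% interval of the ratio from 0.697 to 1.13. The 7 mu class genes had log2 fold changes from -0.34 (Gstm1) to 0.07 (Gstm7), with 6 lower over all libraries and 5 higher without SOX21flox 1 and 4. Gstm3 averaged 49.3 ± 2.76 CPM in SOX21CKO and 58.1 ± 6.48 CPM in SOX21flox, with a log2 fold change of -0.23 ± 0.11 (edgeR unadjusted p = 0.0491, adjusted p = 0.384), and -0.12 without SOX21flox 1 and 4. Gstk1, the kappa class enzyme of mitochondria and peroxisomes, had a log2 fold change of -0.51 ± 0.25, and -0.15 without SOX21flox 1 and 4.

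**Figure D4:**
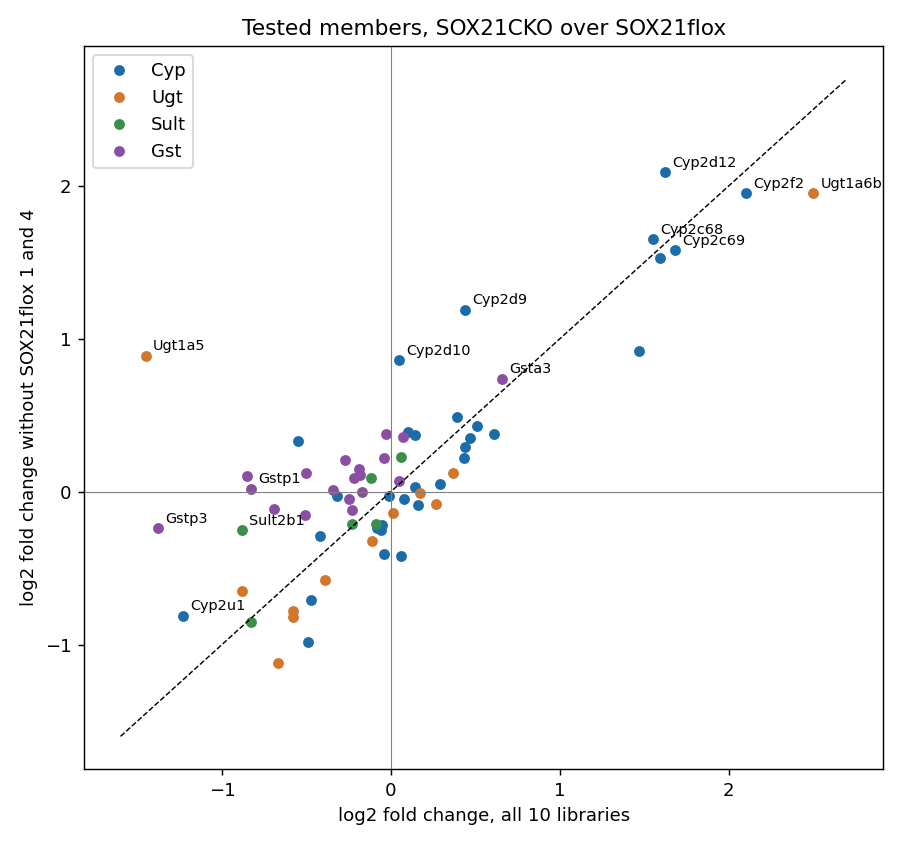
Log2 fold change of SOX21CKO over SOX21flox without SOX21flox 1 and 4 (vertical) against that over all 10 libraries (horizontal) for tested members, coloured by family, with the line of equality dashed. Gstp1 moves from -0.83 to 0.02 and Ugt1a5 from -1.45 to 0.89, while Cyp2c68, Cyp2c69 and Cyp2f2 stay close to the line.

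**Figure D5:**
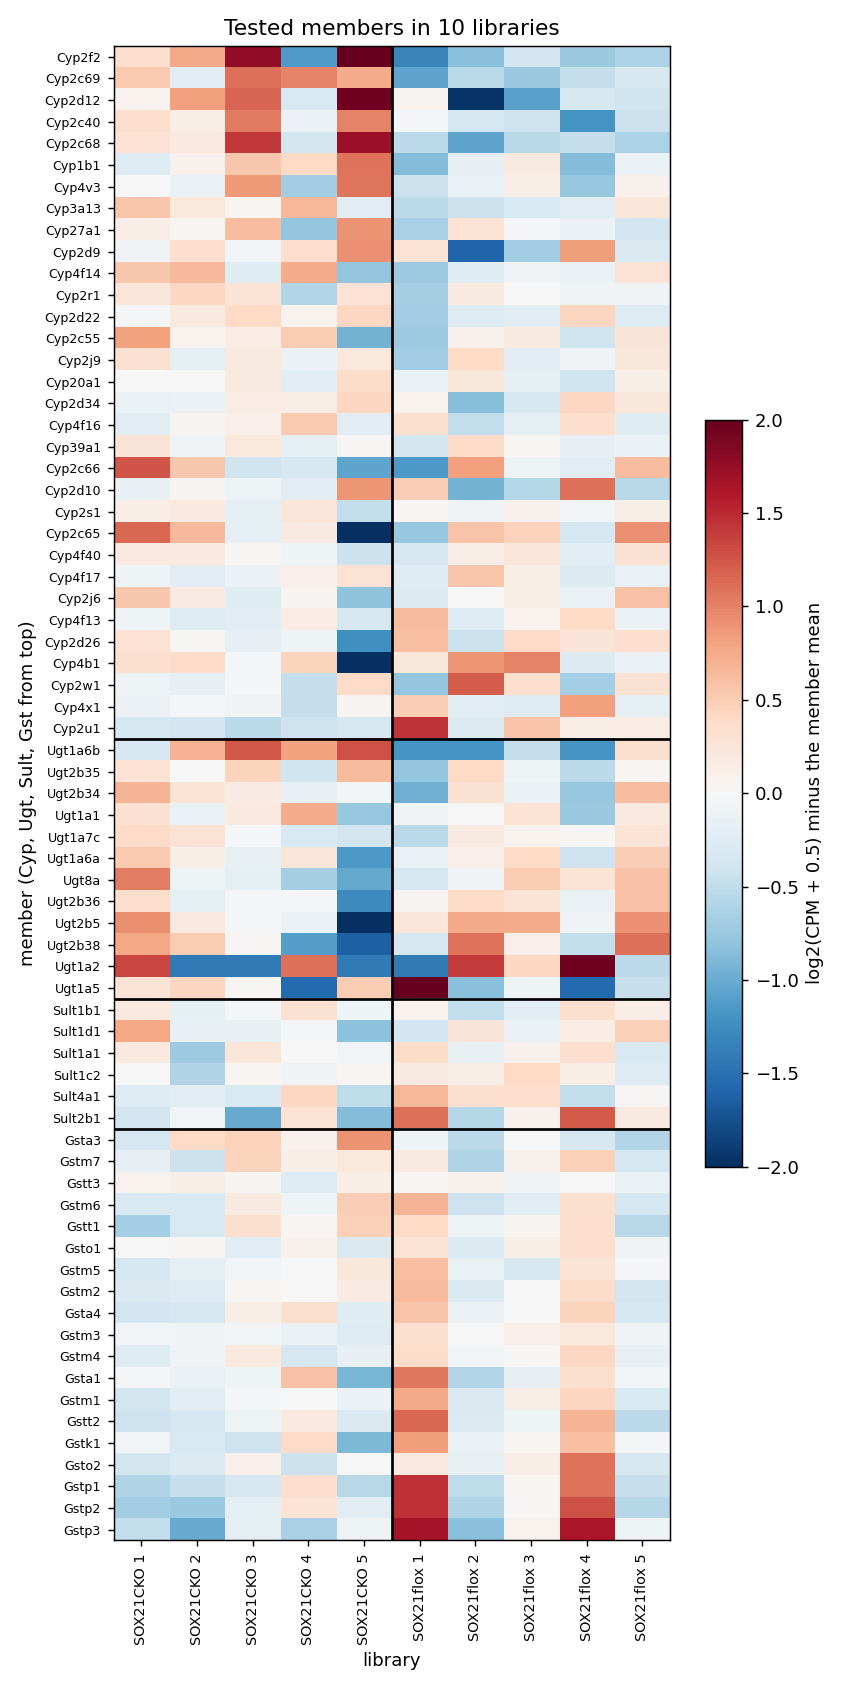
Log2(CPM + 0.5) of the 69 tested members in each library minus the member's mean, with SOX21CKO left of SOX21flox, members grouped by family and ordered by fold change, and colours ending at 2 in each direction. SOX21flox 1 and 4 show the high Gst block, and SOX21CKO 5 shows both the highest Cyp2c68 and Cyp2f2 and the lowest Cyp2c65 and Ugt2b5.

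Genes that serve these enzymes or control them were read from 6 lists. Those named with a fold change had an unadjusted p under 0.05 over all libraries, apart from the targets of Ahr and Aldh1a1. Of 20 tested regulators 11 were higher and 9 lower in SOX21CKO, and 0 were called by edgeR. Tef, a clock-controlled activator of detoxification genes, stood at 11.6, 19.6, 24.4, 16.9 and 25.0 CPM in SOX21CKO 1 to 5, against 7.59, 8.45, 6.46, 11.6 and 7.27 CPM in SOX21flox 1 to 5. The lowest SOX21CKO library was level with the highest SOX21flox library, and the log2 fold change was 1.24 ± 0.23 (edgeR adjusted p = 0.174; DESeq2 adjusted p = 0.000704). Without SOX21CKO 3 and 5, the highest libraries for Tef, it was 0.96 and the DESeq2 call was lost (adjusted p = 0.136). Ahr, the aryl hydrocarbon receptor, averaged 7.81 ± 1.50 CPM in SOX21CKO and 4.83 ± 1.61 CPM in SOX21flox without overlap (0.922% of all genes). Its log2 fold change was 0.68 ± 0.24 (edgeR adjusted p = 0.365), and 0.39 without SOX21flox 1 and 4. Of its known targets Cyp1a1 had 1 read in all, and Cyp1b1 averaged 0.745 ± 0.451 CPM in SOX21CKO and 0.240 ± 0.234 CPM in SOX21flox. The log2 fold change of Cyp1b1 was 1.47 ± 0.70 (edgeR unadjusted p = 0.0567). It was 0.92 without SOX21flox 1 and 4 (edgeR unadjusted p = 0.118) and 0.84 without SOX21CKO 3 and 5 (edgeR unadjusted p = 0.346). The other Ahr targets Tiparp and Nqo1 had log2 fold changes of 0.17 ± 0.25 and -0.21 ± 0.18 (edgeR unadjusted p = 0.514 and 0.253). The target Ahrr had 17 reads and did not pass the filter. Nr1i3, the xenobiotic receptor CAR, and Nr1h4, the bile acid receptor FXR, had log2 fold changes of 0.67 ± 0.29 and -0.51 ± 0.20.

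Of 27 tested genes for other drug-metabolism enzymes 14 were higher and 13 lower. An unadjusted p under 0.05 was found for 6 of the higher ones (5.05% of all genes) and 0 of the lower ones (7.91%). The groups did not overlap for 1 gene with SOX21CKO higher (0.922% of all genes) and for 1 with SOX21CKO lower (1.26%). Ces1d, a carboxylesterase that splits ester drugs and lipids, averaged 61.4 ± 9.25 CPM in SOX21CKO and 43.6 ± 5.04 CPM in SOX21flox without overlap. Its log2 fold change was 0.49 ± 0.13 (edgeR adjusted p = 0.308; DESeq2 adjusted p = 0.0379). The DESeq2 adjusted p was 0.395 without SOX21flox 1 and 4 and 0.209 without SOX21CKO 3 and 5, so the call was lost in both, with log2 fold changes of 0.42 and 0.44. DESeq2 instead called Ces2a without SOX21flox 1 and 4 (adjusted p = 0.0103; 0.224% of all genes higher). Its edgeR log2 fold change was 0.9 there and 0.52 ± 0.23 over all libraries. Without SOX21CKO 3 and 5 DESeq2 called Aldh1a1 (adjusted p = 0.00477; 0.0261% of all genes higher), at 0.72 there and 0.32 ± 0.35 over all libraries. Ces2c, an intestinal carboxylesterase, had a log2 fold change of 0.67 ± 0.22, and 0.44 without SOX21flox 1 and 4. Mgst1, a membrane-bound glutathione transferase, had 0.46 ± 0.18 over all libraries and 0.24 without these. Fmo1, a flavin monooxygenase, had 1.22 ± 0.44, with 9.06 and 13.7 CPM in SOX21CKO 3 and 5, against 1.59 to 7.24 CPM in the other SOX21CKO libraries and 2.20 to 3.88 CPM in SOX21flox. Its log2 fold change was 0.51 without SOX21CKO 3 and 5.

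Of 6 tested genes of sulphate handling, namely the donor synthases Papss1 and Papss2, the transporter Slc26a2, the phosphatases Bpnt1 and Impad1 and the sulphatase Arsa, 5 were higher and 1 was lower in SOX21CKO. Without SOX21flox 1 and 4, 2 were higher and 4 lower. The sulphate transporter Slc26a2 averaged 329 ± 74.0 CPM in SOX21CKO and 192 ± 79.0 CPM in SOX21flox, with a log2 fold change of 0.78 ± 0.27 (edgeR adjusted p = 0.365), and 0.48 without SOX21flox 1 and 4. Of 5 genes of glucuronic acid handling, namely Ugdh, Ugp2, Slc35d1, Slc35b1 and Gusb, which removes glucuronic acid, 3 were higher and 2 lower, and without SOX21flox 1 and 4 all 5 were lower. Of 10 genes of glutathione turnover 4 were higher and 6 lower. Of 11 genes for electron donors and haem 5 were higher and 6 lower, and without SOX21flox 1 and 4, 7 were higher and 4 lower. Hmox1, which breaks haem down, had a log2 fold change of -0.47 ± 0.21, and -0.32 without these libraries.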

How the data were processed

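Colon crypt RNA of 10 libraries was sequenced after mRNA enrichment, per the labels' protocols. Per the submitters' processing notes, the authors used fastp and HISAT2. Their build, annotation, counter and strand setting are unknown (not given in the sources used here). In the deposited count table each Ensembl gene ID has raw read counts. The deposited FPKM table holds the authors' values per gene length and library total, used only to compare levels between genes and as an alternative. Of 33632 gene IDs, 26102 matched a symbol in GENCODE M21 (GRCm38), which gave names, gene types, chromosomes and transcripts, and 7530 did not. Sequences with coordinates are from RefSeq (GRCm38.p6).

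Genes passing edgeR's filterByExpr were compared with edgeR 4.0.16 (TMM scaling, robust quasi-likelihood test, group as the only term, R 4.3.3), with p-values adjusted by Benjamini-Hochberg over all 14963 tested genes at 0.05. Fold changes are SOX21CKO over SOX21flox, with intervals at 95%. The test was checked on simulated counts. Alternatives were DESeq2 1.42.0, limma 3.58.1, other scalings and filters, the mitochondrial share as a covariate, and libraries left out. No pair of libraries agreed within sampling noise (lowest chi-square per degree of freedom 30.6).

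The members and lists were chosen with earlier results of these data known, so no list was tested. Named members are the 5 most abundant and the 4 with the smallest p in each family, those called or without overlap between groups, and up to 4 of each partner list by p. Others beyond that rule were chosen after their values were seen, such as Cyp2c40, other Cyp2d genes, Cyp3a13, Cyp4b1, Cyp1b1 and the members with few reads. So were Tiparp, Nqo1, Ahrr, Ces2a, Aldh1a1, the shown sequences, and the narrowing of partner genes to those with an unadjusted p under 0.05. Protein sequences were not used here.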

Additional observations from a re-analysis of the deposited data

Results flagged for a closer look

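Among 66 groups of 5 libraries of the named members, 5 held a library whose gap to its nearest neighbour was more than 0.71 of the group's range. Chance gives about 1 in 20 such groups. Gstp1 in SOX21CKO 4 stood at 599 CPM, above 312 to 373 CPM in the other SOX21CKO libraries. Sult1c2 in SOX21CKO 2 stood at 14.8 CPM, below 21.6 to 23.4 CPM in the others, and Sult4a1, a brain sulphotransferase, in SOX21CKO 4 at 0.713 CPM, above 0.142 to 0.290 CPM. Cyp2c68 in SOX21flox 2 stood at 8.10 CPM, below 11.1 to 12.3 CPM in the other SOX21flox libraries. Ugt1a5 in SOX21flox 1 stood at 13.6 CPM, above 0 to 0.891 CPM in the others, and its log2 fold change was -1.45 with this library and 1.22 without it.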

How the results depend on the processing

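Over all genes edgeR called 0 in the main comparison, with 1939 at an unadjusted p under 0.05. DESeq2 called 178 (60 higher, 118 lower), 71 without SOX21flox 1 and 4 and 24 without SOX21CKO 3 and 5, limma voom with quality weights 44, the mitochondrial covariate 1, no filter 3, and single libraries left out 0 to 2. DESeq2 called 3 members, and 2 without SOX21flox 1 and 4. The analyses without SOX21CKO 3 and 5, and DESeq2 without SOX21flox 1 and 4, were chosen after seeing the data. The cause of these differences was not tested. Library totals, log2(FPKM + 1) and log2(FPKM + 0.1) moved the median of all genes to 0.36, 0.30 and 0.41, and the fold changes and family medians below are relative to that shift, while the ratios of sums are not. The Cyp median was 0.36 with no filter and 0.10 to 0.24 with single libraries left out. The Gst median was 0.09 without SOX21flox 1 and 4 and -0.32 to -0.12 with single libraries left out; the Ugt and Sult medians then ran from -0.54 to -0.01 and from -0.31 to -0.09. The log2 ratio of the Sult sums was 0.24 on FPKM and 0.22 on library totals, and that of the Gst sums -0.01, 0.06, and 0.03 without SOX21flox 1 and 4.

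Some fold changes turned their sign. Without SOX21flox 1 and 4 these were Gstm1 (0.01), Gstm2 (0.15), Gstp1 (0.02), Gstp2 (0.10), Sult1a1 (0.09), Ugt1a1 (-0.01), Ugt1a5 (0.89), Ugt1a7c (-0.14) and Ugt2b34 (-0.08). With the mitochondrial covariate they were Gstm1 (0.02), Gstm2 (0.15), Gsto1 (0.02), Gstp1 (0.05), Gstp2 (0.13), Sult1a1 (0.10), Ugt1a5 (0.87), Ugt1a7c (-0.16) and Ugt2b34 (-0.10). Without SOX21CKO 3 and 5 they were Cyp2c65 (0.42), Sult1d1 (0.15) and Ugt1a6a (0.18). Ugt1a7c was -0.0024 with DESeq2 and with RLE scaling and -0.04 on library totals. On log2(FPKM + 1) Gstm2 and Sult1a1 were both at 0.01. With quality weights Ugt1a1 was -0.03, Ugt1a5 0.43 and Ugt1a7c -0.02. With single libraries left out the ranges were -0.39 to 0.24 for Cyp2c65, -0.01 to 0.28 for Cyp2d34, -0.21 to 0.01 for Sult1a1, -0.04 to 0.16 for Sult1b1, -0.37 to 0.06 for Sult1d1, -0.02 to 0.33 for Ugt1a1, -1.78 to 1.22 for Ugt1a5, -0.27 to 0.08 for Ugt1a6a and -0.11 to 0.09 for Ugt1a7c.

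Same-numbered libraries showed mixed correlations of their deviations from the group means (-0.297, 0.282, 0.0899, 0.396 and -0.0574). No SOX21CKO library deviated most like the SOX21flox library of its number. Such correlations cannot tell whether the numbers pair libraries, since other differences between libraries enter them too. With the replicate number as a block 0 genes were called, 1986 had an unadjusted p under 0.05, Ugt1a5 was 0.18 and Ugt1a7c -0.0043.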
